A study of Mus musculus with 3 samples.

Results

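Short protein-coding genes, here genes whose annotated span from first to last transcribed base is below 10000 nt, held 1201 of the 8196 Tet2 peaks called in mouse mast cells. These 1201 peaks lay in 549 genes. A peak was taken when its midpoint fell in the span of exactly 1 gene of the RefSeq annotation of GRCm38.p6 (mm10 coordinates) and that gene was protein-coding and short, whatever the height of the peak. Another 169 peaks had their midpoint in a short coding gene and in a second gene as well, and were left aside because the peaks carry no strand.

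The study asked which RNAs bind Tet2 in mast cells grown from bone marrow of C57BL/6 mice. The cells, cultured with interleukin-3 and stem cell factor, bore FcεRI and c-Kit at the surface, were irradiated with ultraviolet light, and gave 3 biological replicate libraries by pulldown with an antibody against Tet2. All libraries belong to 1 group, with no genetic change and no treatment in the labels. No input or control-antibody library was used here, and RNA levels were not measured, so binding and RNA abundance cannot be told apart at any gene named.

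Tet2 is an iron-dependent dioxygenase that oxidises 5-methylcytosine in DNA, and it also acts on methylated cytosines in RNA. In cross-linking and immunoprecipitation (CLIP), ultraviolet light ties a protein to RNA that it touches, the unprotected RNA is digested, and the protected fragments are sequenced. Mast cells are tissue-resident immune cells that store proteases and histamine in granules and respond to antigen through IgE held by FcεRI.

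The libraries held 3019, 2800 and 2377 peaks in replicates 1, 2 and 3. Deposited heights sum to 1 in each library. Every height is a whole number of equal steps, and heights are given below as numbers of those steps, called units. The libraries summed to 19213, 18270 and 15431 units, and the lowest peak stood at 2, 2 and 3 units. One unit is thus a larger share of summed height in replicate 3 than in the others. Where units of different libraries are set side by side below, they are not adjusted for these totals. Unless a locus is named, units given for a gene are those of its tallest peak in each library. These peaks can lie at different places in the gene. Sequencing depth is unknown.

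The short genes took 474, 378 and 349 peaks in replicates 1, 2 and 3, or 15.7%, 13.5% and 14.7% of each library's peaks. The mean share was 14.6% ± 1.10 (SD, n = 3) of peaks and 11.9% ± 0.949 of summed height. Protein-coding genes of 10000 nt or more, called longer genes below, took 5398 peaks over the 3 libraries. A further 561 peaks lay in more than 1 span, 310 in non-coding genes and 726 outside any span.

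The bases under a few of these peaks could be read from RefSeq promoter windows on GRCm38.p6, which surround annotated transcript starts, some of them inside the span. Of all loci in short genes, 20 seen in 1 library and 13 seen in 2 or 3 libraries lay far enough inside a window. Of 7 loci present in all 3 libraries, that of Mtfr1l (3, 3 and 4 units) is chained from peaks without a base common to all and is not shown. Shown are the other 6 and a locus close to the 5′ end of Rpl13a, because they let a reader see what recurrent peaks cover, each as 30 nt of the gene strand in DNA letters centred on the tallest peak. Capitals mark the bases covered in every library that held the locus.
Sf3a2 (chr10:80798780-80798809, plus strand): ggctGCTCCGTCGGGGAGGCTTGAAGgtgg
Gfer (chr17:24696060-24696089, minus strand): ccgctgCCCGCACGCCAGCAAGATGgcggc
Svip (chr7:52005773-52005802, minus strand): CCTGCGTCCCCATGGGGCTGTGCTTCCCTT
Pigw (chr11:84880032-84880061, minus strand): gggGCGGAGGGGagacgcccctcccacgga
Higd1a (chr9:121857524-121857553, minus strand): GCGGCCAGAAACCGGCAGGACTGGAAGGGA
Tmem106c (chr15:97964157-97964186, plus strand): AGGAGGGACGCGCTGGAGCTCAGGGCGCAG
Rpl13a (chr7:45128704-45128733, minus strand): tcccAGGCGGCTGCCGAAGATGGCGGAGGG
The units in replicates 1, 2 and 3 were 8, 8 and 4 for Sf3a2, a subunit of the U2 snRNP. They were 5, 6 and 3 for Gfer, a sulfhydryl oxidase of the mitochondrial intermembrane space, and 3, 3 and 6 for Svip, an inhibitor of endoplasmic reticulum-associated degradation. Pigw, an acyltransferase of glycosylphosphatidylinositol anchor synthesis, had 4, 12 and 4 units, highest in replicate 2. Higd1a, a mitochondrial protein induced in hypoxia, had 12, 10 and 5 units. Tmem106c, a membrane protein, had 11, 8 and 7 units. The Rpl13a locus, in a gene for a protein of the large ribosomal subunit, had 3 units in replicate 1, no peak in replicate 2 and 3 units in replicate 3. Tmem106c lay deepest, 995 nt from the 5′ end of its span, and Rpl13a nearest, at 28 nt. Over the 13 windows the median GC content was 70%, between 60% and 83.3%, with a median of 3 CG dinucleotides. For comparison, the first 30 nt after the annotated start had a median GC content of 63.3% in 445 short genes with a peak, against 56.7% in 4786 short genes without one, olfactory, taste and vomeronasal receptors set aside. That comparison is a description of annotated starts and carries no test.

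Short genes carried peaks less often than longer genes but more densely along their span. Of 7937 short protein-coding genes, 549 (6.92%) had 1 or more peaks in some library, against 2234 of 13959 longer genes (16.0%). A peak in all 3 libraries was found in 128 short genes (1.61%), against 488 longer genes (3.50%). Per library, 355, 298 and 272 short genes held a peak, a mean of 3.88% ± 0.535 of short genes against 8.84% ± 0.704 of longer genes (SD, n = 3). The difference, short minus longer, was -4.96 ± 0.361 percentage points and lay below 0 in 3 of 3 libraries (exact sign-flip permutation test over libraries, two-sided, p = 0.25, the smallest p that 3 libraries allow). No olfactory, taste or vomeronasal receptor gene, of 1374 short ones, held a peak. Without these receptors 549 of 6563 short genes (8.37%) held one.

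Peak density was 0.146, 0.116 and 0.107 peaks per 10 kb of short-gene span in replicates 1, 2 and 3. The mean was 0.123 ± 0.0201 peaks per 10 kb in short genes, against 0.0177 ± 0.00204 in longer genes (SD, n = 3). The difference of 0.105 ± 0.0185 was positive in 3 of 3 libraries (exact permutation test, two-sided, p = 0.25). Among peaks of at least 5 units the difference was smaller, 0.0394. Exons were not analysed here, so density is per annotated span and not per length of mature RNA. A short gene with a peak held 1.30 ± 0.0351 peaks per library, against 1.46 ± 0.0543 in longer genes, and 78.7% ± 2.43 of them held a single peak, against 74.0% ± 1.38. Over the 3 libraries together, 265 short genes had 1 peak, 240 had 2 to 4, 38 had 5 to 9 and 6 had 10 or more.

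**Figure D1:**
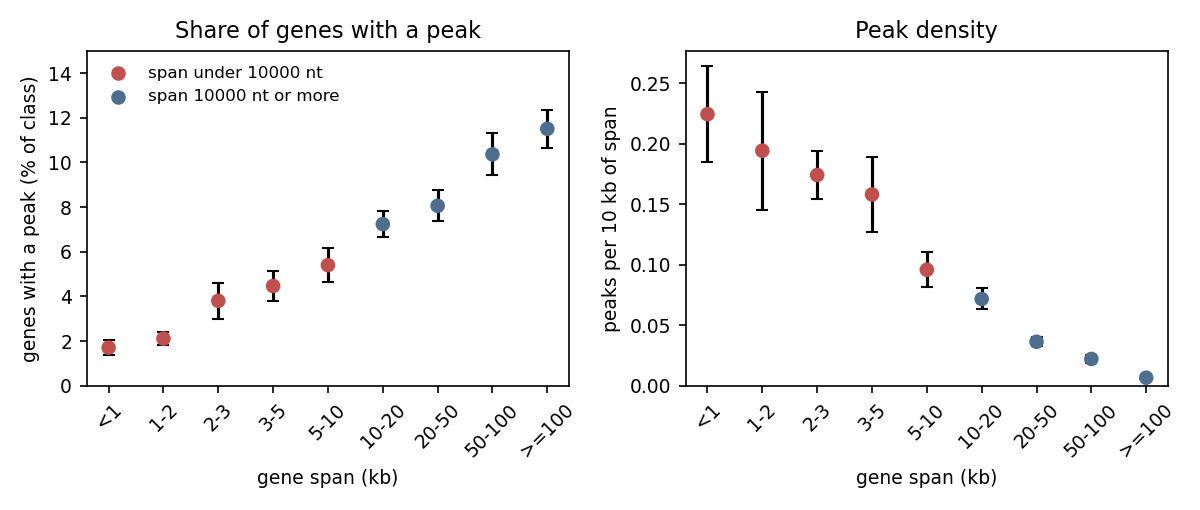
Share of protein-coding genes with a peak (left, percent, mean of 3 libraries) and peaks per 10 kb of span (right) by class of span length in kb, on linear axes. Points are means over 3 libraries with SD bars, red for short genes and blue for longer ones. The share is higher in each longer class and the density lower.

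Among the short genes themselves, length went with both measures. In genes of 5000 to 10000 nt, 291 of 2890 (10.1%) had a peak in some library, and density averaged 0.0959 ± 0.0145 peaks per 10 kb (SD, n = 3). In genes of 2000 to 3000 nt, 57 of 816 (6.99%) held a peak, at 0.174 ± 0.0197 peaks per 10 kb. In genes under 1000 nt, 42 of 1584 (2.65%) held a peak, at 0.225 ± 0.0396 peaks per 10 kb. Without histone genes 6 of 1522 genes (0.394%) held a peak, with 4, 1 and 4 peaks in replicates 1, 2 and 3, and density was 0.0230 ± 0.0133.

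Genes on both sides of the length limit carried peaks. Among those just inside it was Psmd4, a ubiquitin receptor of the proteasome (9927 nt), with 4 units in replicate 1 and no peak in the other libraries. Sytl1, a synaptotagmin-like protein (9998 nt), had 4 units in replicate 2 alone. Among those just outside were Ptbp1, a repressor of splicing (10004 nt), with 3 units in replicates 1 and 3, and Chga, the chromogranin of secretory granules (10087 nt), with 9, 7 and 4 units.

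The tallest peaks of short genes belonged to a matricellular protein, to histone H2B, to a predicted gene and to housekeeping genes. Ccn3, a secreted protein of the CCN family, lies at chr15:54745910-54753762 and had a tallest peak of 31, 44 and 27 units in replicates 1, 2 and 3, with a second peak of 14, 20 and 9 units at chr15:54749150-54749154. The tallest Ccn3 peaks were 5, 1 and 10 nt wide, and those of replicates 2 and 3 both touch that of replicate 1 without touching each other. H2bc9, 1 of the H2B genes on chromosome 13, had 44, 26 and 26 units, highest in replicate 1. Its peaks were 5, 2 and 2 nt wide and lay 401, 402 and 397 nt from the 5′ end of a 522 nt gene, within a few bases of each other but with no base common to all 3. Gm51464, a predicted gene at chr7:48137395-48142740, had 24, 24 and 30 units at chr7:48137570-48137601, close to its 5′ end. In units replicate 3 was the highest there, although its library had the lowest total.

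Cdkn1c, an imprinted inhibitor of cyclin-dependent kinases, had 23, 24 and 21 units in replicates 1, 2 and 3, in the stretch chr7:143459984-143459999. There the peaks of replicates 1 and 2 both overlap that of replicate 3 without overlapping each other. Eif4a1, the RNA helicase of the cap-binding complex, had 26, 34 and 17 units, lowest in replicate 3. Its tallest peaks lay 388, 364 and 362 nt from the 5′ end, and the peak of replicate 1 did not overlap the others. Galk1, which phosphorylates galactose, had 20, 26 and 13 units at 114, 109 and 90 nt from the 5′ end, and all 3 peaks overlapped. Cox7c, a subunit of cytochrome c oxidase, had 23, 12 and 11 units at 258, 267 and 253 nt from the 5′ end, highest in replicate 1. Rnf167, a ubiquitin ligase of lysosomal membranes, had 17, 16 and 14 units and lay at the other end, 274, 267 and 277 nt from the 3′ end. Over all libraries, 24 peaks in 12 short genes reached 20 units or more, and their median width was 10 nt.

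**Figure D2:**
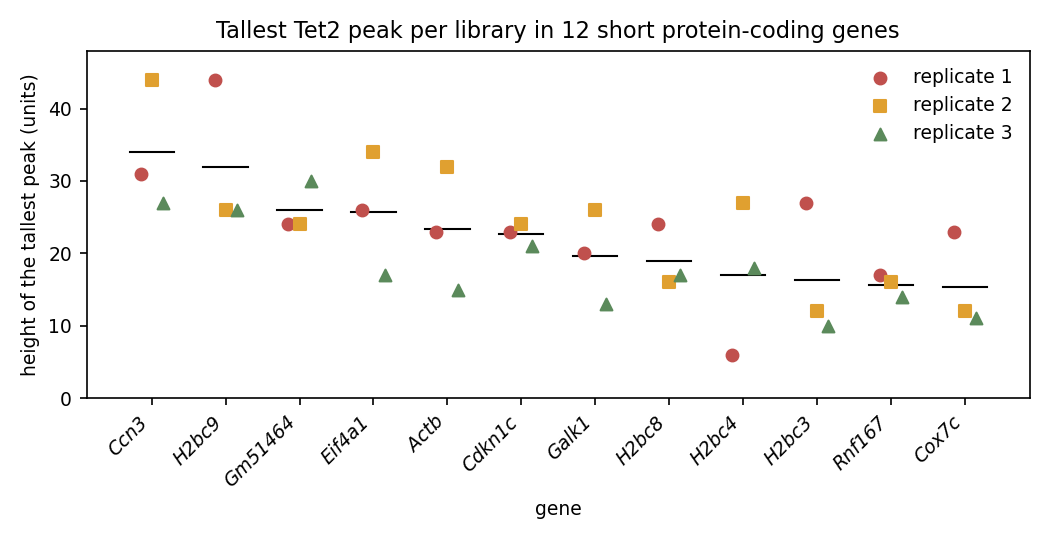
Height of the tallest peak in each of 3 libraries (units, linear axis) for the 12 short genes with the highest mean. Symbols are libraries and the line is their mean. Ccn3 and H2bc9 lie highest, H2bc4 spreads from 6 to 27 units, and Cdkn1c stays between 21 and 24.

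The genes with the most separate peaks were led by Actb and Eef2, and Actb was also among the genes with the tallest peaks. Actb, cytoplasmic β-actin, at chr5:142903115-142907976, had 4, 4 and 7 peaks in replicates 1, 2 and 3, with a tallest peak of 23, 32 and 15 units in chr5:142905598-142905627 that overlapped in all libraries. Eef2, the translocase of translation elongation, had 5 peaks in every library, and 3 of its loci were shared by all. Its tallest peak had 10, 11 and 14 units at 5367, 5374 and 5364 nt from the 5′ end, toward the 3′ end of the gene. Mbd6, a methyl-CpG-binding domain protein, differed: it had 3, 5 and 4 peaks, none above 5 units, and no locus was shared by all 3 libraries. Lrrc45, a centrosomal protein, had 3, 3 and 5 peaks with a tallest of 16, 17 and 10 units.

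Counts of peaks were uneven between libraries in several of these genes. Rpl13a had 6, 1 and 3 peaks and Zfp36l2, which recruits decay factors to AU-rich mRNAs, had 5, 1 and 2. Coro1a, an actin regulator of blood cells, had 2, 5 and 1 peaks while its tallest peak was nearly even, at 12, 11 and 11 units. Pabpn1, the nuclear poly(A)-binding protein, had 3, 2 and 3 peaks, and Cited2, a regulator of CBP and p300, had 2, 2 and 3.

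**Figure D3:**
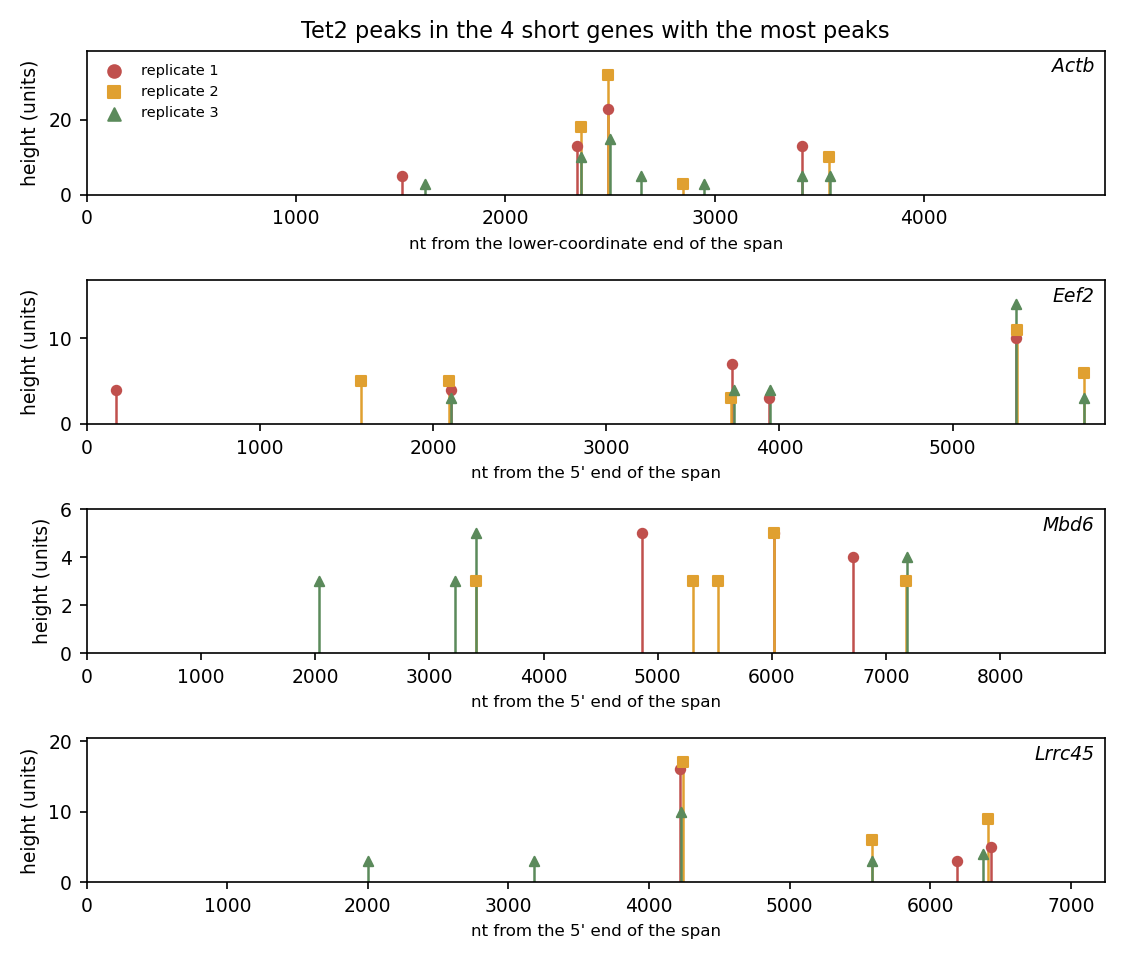
Peaks along Actb, Eef2, Mbd6 and Lrrc45, the 4 short genes with the most peaks. The horizontal axis is distance in nt from the annotated 5′ end, or from the lower coordinate where the tables hold no strand, and the vertical axis is height in units on a linear scale. Colours and symbols are the 3 libraries. Eef2 peaks recur in stacks at the same distances, while those of Mbd6 are scattered and low.

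Histones, the proteins that wrap DNA into nucleosomes, stood out in how many of their genes held a peak. Their replication-dependent genes are short, lack introns and give mRNAs that end in a stem-loop instead of a poly(A) tail. Of 74 short histone genes, 43 (58.1%) had a peak in some library, against 6.92% of all short genes, and 16 (21.6%) in every library, against 1.61%. Replicates 1, 2 and 3 found 36, 26 and 27 of them. By type, 10 of 15 H2B genes, 10 of 17 H2A genes, 9 of 13 H4 genes, 5 of 12 H3 genes, 5 of 10 H1 genes and 4 of 7 genes for replication-independent H2A and H3 held a peak. H2B also had the taller peaks, with a median of 11 units over 28 peaks, against 5 for H2A, 4 for H4, 4 for H1 and 3 for H3. H2B peaks lay at a median of 354 nt from the 5′ end, or 75.3% of the span, while those of H1 lay at a median of 23.5%.

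H2bc8 had a tallest peak of 24, 16 and 17 units in replicates 1, 2 and 3, and H2bc3 had 27, 12 and 10, both highest in replicate 1. H2bc4 had 6, 27 and 18 units and was lowest there. Among H4 genes, H4c4 had 17, 13 and 16 units. The 8 short genes with the most peaks per kb among those with a peak in every library were all histones. H2bc8 led with a mean of 3.59 peaks per kb per library, then H2bc15 with 2.79. Since each such gene holds a peak in every library, this ranking favours the shortest spans and is not separate from a ranking by length. The 5 shortest genes with a peak in every library were histones too, from H4c3 at 375 nt to H2ac13 and H2bc7 at 448 nt. Copies of one histone type are near-identical in sequence, and how reads shared between copies were placed was not analysed here, so the split between copies is uncertain. Chromosome 13, which holds most of these genes, had peaks in 44 of 306 short genes (14.4%), against 6.92% of all short genes. That was the highest share among chromosomes with such a peak. Chromosome 8 came next with 10.2%, and the X chromosome had the lowest, 10 of 399 (2.51%).

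Genes of protein synthesis also held peaks above the rate of all short genes, 6.92% in some library and 1.61% in all. Of 22 short genes for translation factors, 10 (45.5%) held a peak and 4 did so in all libraries. Eef1a1, which brings aminoacyl-tRNA to the ribosome, had 8, 6 and 6 units, and Eif4a2, a paralogue of Eif4a1, had 5, 4 and 4. Of 86 short genes for cytosolic ribosomal proteins, 21 (24.4%) held a peak, 4 of them in all libraries. Rpl27a had 5, 8 and 4 units, Rpl15 had 3, 3 and 6 and Rplp0, the stalk protein, had 5, 3 and 3, the last without a locus shared by all libraries. None of these 3 genes exceeded 8 units in any library, while Rpl13a, the tallest of the list, had 11, 3 and 5 units.

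Among RNA-binding proteins of the nucleus, 5 of 13 short hnRNP and SR genes (38.5%) held a peak, against 6.92% of all short genes. Srsf1, a splicing factor, had 6, 7 and 3 units, the only one of these present in all libraries, but without a locus shared by all. Hnrnpab had 7 and 6 units in replicates 1 and 2 and none in replicate 3. Cytoskeletal genes held peaks in 9 of 21 (42.9%), with Actg1, cytoplasmic γ-actin, at 5, 5 and 3 units. Of 32 short genes for heat shock proteins and co-chaperones, 5 (15.6%) held a peak. Hspa5, the chaperone of the endoplasmic reticulum, had a tallest peak of 16, 5 and 3 units, not all at the same place. The peak of 16 units in replicate 1 was 1 nt wide, 285 nt from the 5′ end, and overlapped no other library. Those of replicates 2 and 3 lay at 235 and 228 nt. Dnajb9, a co-chaperone of Hspa5, had 11, 6 and 9 units.

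Nuclear-encoded respiratory chain genes held peaks in 9 of 70 (12.9%, against 6.92% of all short genes), 3 of them in all libraries. Beside Cox7c, Atp5j, which encodes a subunit of ATP synthase, had 8, 13 and 12 units and Cox8a had 5, 4 and 4. Proteasome genes were near the rate of all short genes, with 2 of 23 (8.70%), and none was present in all libraries. Peaks were found in 2 of 9 short HMG and nucleosome-binding genes (22.2%) and in 2 of 8 short ubiquitin genes (25%), and none of these was present in all libraries either.

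Genes that respond to stimulation were bound in part. Of 34 short immediate-early and Zfp36 family genes, 15 (44.1%) held a peak and 6 did so in all libraries, against 6.92% and 1.61% of all short genes. Zfp36l2 had 13, 4 and 5 units and Ier3, an early-response gene of stress, had 6, 7 and 3. Egr3, a zinc-finger transcription factor, had 5 units in each library. All 3 short SOCS genes held a peak. Socs1, an inhibitor of JAK kinases, had 11, 18 and 6 units, whereas Cish had 4 and 5 units in replicates 1 and 3 and Socs3 had 4 units in replicates 1 and 2. Of the haematopoietic transcription factors and inhibitors that are short, 4 of 13 (30.8%) held a peak. Among them were Id3, an inhibitor of basic helix-loop-helix factors, with 5, 6 and 5 units, and Mafg with 3, 4 and 3. In Zfp36l2, Socs1, Id3 and Mafg no locus was shared by all libraries. The Mafg peaks lay 4427, 9558 and 9582 nt from the 5′ end in replicates 1, 2 and 3.

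On the cytokine list, genes with a peak were rarer than among all short genes, of which 6.92% held one. The mast cell lists lay above that rate, on small counts. Of 46 short genes on the cytokine, chemokine and growth factor list, 1 (2.17%) held a peak, Ccl2, with 4 units in replicate 2 alone. The list does not hold every such gene, and others, picked with their values in view, had peaks. Flt3l, the ligand of the receptor Flt3, had 3 units in each library at a locus shared by all, and Il27, a subunit of interleukin-27, had 4 units in replicate 1 alone. Gdf15 and Fgf11 each had a peak in 1 library. Of 10 short genes for mast cell proteases and granule proteins, 2 (20%) held one. Tpsb2, a mast cell tryptase, had 3, 7 and 3 units, and Gzmb, granzyme B, had 3 units in replicate 1 and 5 in replicate 3. Cma1, Mcpt1, Mcpt4, Mcpt8, Mcpt9, Ctsg, Prss34 and Tpsg1 had none. Of 7 short genes for FcεRI chains and surface proteins, 1 (14.3%) held a peak. It was Il3ra, the α chain of the interleukin-3 receptor, with 3 units in replicate 3, while Fcer1a, Fcer1g, Ms4a2, Siglecf, Mrgprx1 and Mrgprb2 had none. The genes for all chains of FcεRI, which defines the labelled cells, were thus without a peak that lay in their span alone, and their RNA levels were not measured here. Of 44 short marker genes of macrophages, neutrophils, lymphocytes, erythroid cells, megakaryocytes, basophils and eosinophils, 0 held a peak in any library, and 4 of these (Ctsg, Mcpt8, Prss34 and Siglecf) also stand in the mast cell lists. That count covers the listed markers only, and beside a rate of 6.92% over all short genes, 44 genes are few. Outside the lists, and picked with their values in view, Gimap5, a GTPase of lymphocytes, had a tallest peak of 6, 5 and 7 units and a locus shared by all libraries. Gp1ba, a platelet receptor chain, had 3 units in replicate 1, Gzmm, a granzyme, had 5 units in replicate 2 and Ptprcap, a partner of CD45, had 2 peaks in replicate 1. A bulk pulldown cannot tell fewer cells of a type from less RNA per cell, and a gene counted here as without a peak may still have one in a stretch that it shares with another gene. Keratins and their associated proteins, abundant in skin, had 1 gene with a peak among 98 short ones (1.02%), Krt8, with 5 units in replicate 3.

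Peaks in short genes lay toward the 5′ end. Strand was known for 985 of the 1201 peaks. Of these, with the span cut into 3 equal parts, 54.9% ± 2.05 lay in the 5′ part, 22.1% ± 1.82 in the middle part and 22.9% ± 0.999 in the 3′ part (SD, n = 3). In longer genes the shares were 46.0% ± 1.69, 19.9% ± 0.2506 and 34.1% ± 1.68. The 5′ part was fuller in short genes by 8.92 ± 1.66 percentage points and the 3′ part emptier, with a difference of -11.2 ± 2.37, each in 3 of 3 libraries (exact permutation test, two-sided, p = 0.25 for both).

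**Figure D4:**
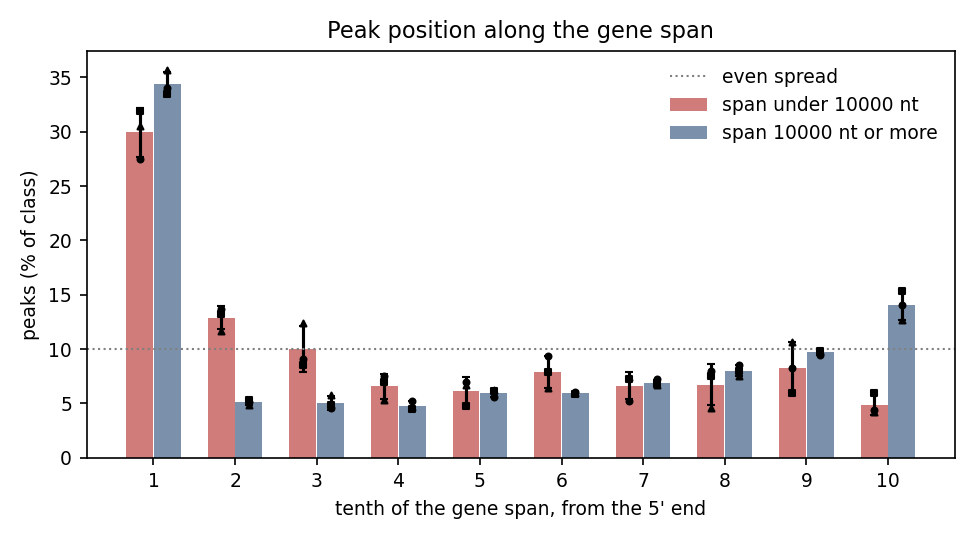
Share of peaks (percent) in each of 10 equal parts of the annotated span from the 5′ end, in short and in longer genes. Columns are means of 3 libraries with SD bars, black symbols are the libraries, and the dotted line at 10% is an even spread. In both the 5′-most part is the fullest. Longer genes show a lower maximum at the 3′ end, where short genes have 4.88%.

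With the span cut into 10 equal parts, the parts at both ends were emptier in short genes in 3 of 3 libraries. The 3′-most part held 4.88% ± 0.964 of peaks in short genes, against 14.02% ± 1.30 in longer genes. The 5′-most part held 29.9% ± 2.25 in short genes, against 34.4% ± 1.14, but the next part held 12.9% ± 1.06, against 5.12% ± 0.2503 in longer genes. A narrower measure, without regard to strand, took the outer 10% of the span in total, split evenly between its ends. In replicates 1, 2 and 3, 20.04%, 20.1% and 20.6% of short-gene peaks lay there. The mean was 20.3% ± 0.323, against 37.8% ± 1.31 in longer genes. The difference was -17.6 ± 1.08 percentage points, below 0 in 3 of 3 libraries (exact permutation test, two-sided, p = 0.25).

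Distances in nt read differently. Within 200 nt of the 5′ end lay 17.7% ± 1.32 of short-gene peaks, against 7.83% ± 1.01 of longer-gene peaks, and within 500 nt lay 42.0% ± 1.36, against 19.8% ± 1.28 (SD, n = 3). Within 500 nt of the 3′ end lay 12.5% ± 1.19, against 1.85% ± 0.542. The median short-gene peak stood 872, 783 and 828 nt from the 5′ end in replicates 1, 2 and 3, against 12668, 12363 and 11213 nt in longer genes. Spans differ in length by design, with a median of 3692 nt in short genes, of 5209 nt in those with a peak and of 33127 nt in longer genes, so these distances follow in part from the choice of genes.

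Recurrence between libraries did not separate short from longer genes when all 3 libraries were required, and its direction depends on the definition. A peak that overlapped peaks of both other libraries by at least 1 nt made up 18.6%, 21.96% and 24.4% of short-gene peaks in replicates 1, 2 and 3. The mean was 21.6% ± 2.91 in short genes, against 22.4% ± 2.66 in longer genes (SD, n = 3). The difference ran from -1.89 to 0.655 percentage points between libraries, with no common sign (exact permutation test, two-sided, p = 0.5). Overlap with at least 1 other library was seen for 51.1% ± 5.88 of short-gene peaks, against 44.4% ± 4.38, and this difference of 6.63 ± 3.06 was positive in 3 of 3 libraries (exact permutation test, p = 0.25). Overlapping peaks count in each library that holds them, so the 3 values of either measure are not independent.

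Recurrence went with height. Among short-gene peaks of 4 units or less, 12.9% ± 4.57 overlapped both other libraries, against 11.2% ± 1.63 in longer genes. Among peaks of 10 units or more, 56.8%, 51.2% and 50.0% did so in short genes, from 44, 43 and 26 such peaks, a mean of 52.7% ± 3.65 against 66.6% ± 1.35 in longer genes. This gap of -13.95 ± 3.26 percentage points held in 3 of 3 libraries (exact permutation test, two-sided, p = 0.25). The 3 gaps are not independent, since a locus shared by all libraries can count in each of them.

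**Figure D5:**
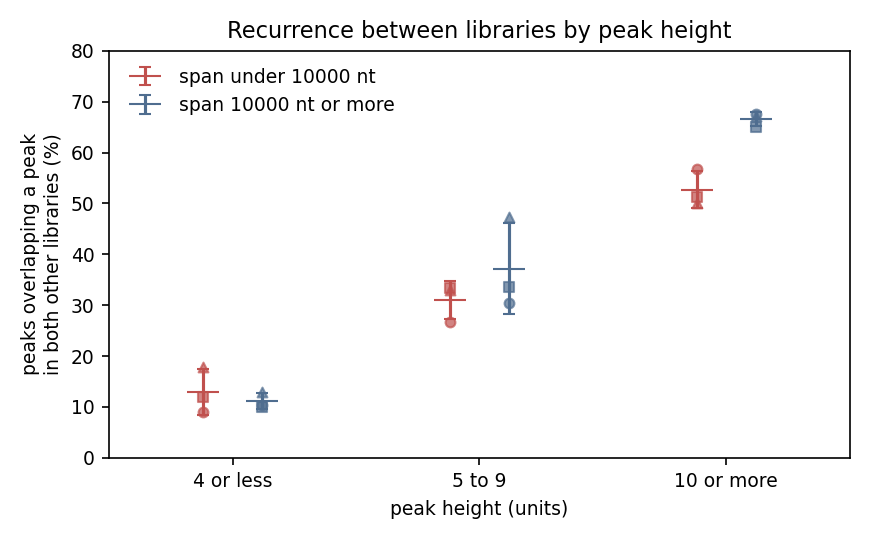
Share of peaks that overlap peaks of both other libraries (percent), by height class in units, in short and in longer genes. Symbols are libraries, horizontal lines their means and vertical bars SD. The shares climb with height in both classes of gene, and at 10 units or more all 3 short-gene values lie below the longer-gene values.

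Chained by overlap, short-gene peaks formed 851 loci, of which 94 (11.05%) held peaks of all 3 libraries, 162 (19.0%) of 2 and 595 (69.9%) of 1. Longer-gene peaks formed 3997 loci, with 422 (10.6%), 556 (13.9%) and 3019 (75.5%). By gene, 128 short genes were found in all libraries, 120 in 2 and 301 in 1. Of the 128, 82 had a locus shared by all, 28 had peaks of the 3 libraries with midpoints within 200 nt but without such a locus, as in H2bc9, and 18 had them farther apart, as in Mbd6. The 94 shared loci had a median of 5.67 units, between 3 and 34, and 3 of them had the same start and end in every library. One of these is chr16:20535535-20535601 in Ap2m1, the μ subunit of the endocytic adaptor AP-2. Of 80 shared loci with known strand, 46 lay in the 5′ of 3 equal parts of the span, 15 in the middle and 19 in the 3′ part, with the median at 24.8% from the 5′ end.

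Other shared loci lay in genes of varied function. Ftl1, the ferritin light chain, had 12, 11 and 9 units, and Ucp2, a mitochondrial carrier, had 12, 10 and 6. Stk16, a Golgi-associated kinase, had 12, 12 and 10, Phf1, a partner of Polycomb repressive complex members, had 13, 12 and 8, and Romo1, a mitochondrial inner membrane protein, had 13, 13 and 5. In units, replicate 3 was the lowest in all 5 of these genes, and its library also had the lowest total. The Ftl1 locus is chained from peaks without a base common to all.

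Height separated the classes of gene little. The mean log2 height was 2.17, 2.21 and 2.11 in short genes in replicates 1, 2 and 3, a mean of 2.16 ± 0.05 against 2.13 ± 0.03 in longer genes (SD, n = 3). The difference of 0.03 ± 0.02 was positive in 3 of 3 libraries (exact permutation test, two-sided, p = 0.25), and it turned sign without the histone genes, at -0.00468. The median peak stood at 4 units in both. Peaks of 10 units or more made up 9.37% ± 1.96 in short genes, against 8.04% ± 0.743, and peaks at most 10 nt wide made up 8.14% ± 1.39, against 6.77% ± 0.522.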

How the data were processed

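Peak heights are a normalized signal, deposited by the authors with the position of each peak in one list per replicate. Tools named in the submitters' processing notes are STAR 2.4.0i and cutadapt 1.9, with the build mm10, and a valley-seeking algorithm called the peaks, per the labels' protocols, with settings not given in the sources used here. Heights were turned into whole multiples of each library's step, which 100% of peaks met within 0.05 of a step. Starts were read as 0-based and are printed 1-based.

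From these lists, midpoints were assigned to 49993 RefSeq spans of GRCm38.p6 with Python 3.11.15, pandas 2.3.3 and NumPy 2.4.6. Strand came from RefSeq promoter windows and was known for 6411 of 7937 short genes. Sequences are those of RefSeq. The members and the 24 gene lists were chosen with earlier results of these data known, so list counts are a description without a test. The result of 1 list is not reported here. Genes were named by rule: the 12 with the highest mean tallest peak, the 10 with the most peaks, the 8 with the most peaks per kb and the 5 shortest with a peak in every library, and up to 4 per list. Genes named for sequences, for the length limit or as shared loci were picked with their values in view. The planned choice of sequences from the named genes could be kept only for Rpl13a, since the other windows do not reach their peaks.

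Short and longer genes were compared within each library by a sign-flip permutation test over 3 libraries, with a smallest p of 0.25. The p-values measure only the spread between these libraries, part of which may be technical. For recurrence the 3 values are not independent, because each is defined by overlap with the other libraries. On simulated data with 1200 peaks in 600 genes, 100% of peaks recovered their true class and recurrence. Simulated peaks lay inside a single gene span, and shared ones had the same midpoint. The result therefore checks the counting only, and not how well overlap finds narrow or offset peaks in these data. Exons, untranslated regions and introns were not analysed here.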

Additional observations from a re-analysis of the deposited data

How the results depend on the processing

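The differences between short and longer genes in density, share of genes with a peak and share of peaks in the outer 10% of the span kept their sign under each alternative tried for them. The density difference ran between 0.0394 (peaks of at least 5 units) and 0.154 (limit of 5000 nt), and the difference in genes with a peak between -5.28 (without histone genes) and -1.75 (peaks of at least 5 units). The outer share ran between -23.2 (limit of 5000 nt) and -14.6 (outer 20%). Leaving out 1 replicate gave 0.0947 to 0.112 peaks per 10 kb. The share of all peaks in short genes was 7.19% with a limit of 5000 nt, 29.6% with 20000 nt and 16.7% with overlapping spans allowed. Recurrence in both other libraries turned sign, to 0.524 points with a limit of 5000 nt, 1.72 with 20000 nt and 4.83 when midpoints within 200 nt counted, and the cause was not tested. Leaving out 1 replicate gave 1.13 to 4.39 points, where overlap is with the only other library left. The log2 height difference turned sign to -0.00982 among peaks of at least 5 units and to -0.00468 without histone genes, which was chosen after seeing the data along with leaving out receptors and the length outside other genes. Of the 24 lists, 16 held peaks above the rate of all short genes, and 11 to 16 under the alternatives. No paired analysis was possible because the labels hold 1 group only, so no samples of different groups can be paired; short and longer genes were set against each other within each library. Depth is unknown, and a gene counted as without a peak may hold one of the 169 left aside in overlapping spans.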

Other observations

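Some short genes best known from tissues other than blood held a locus shared by all 3 libraries. In Lor, Slc32a1 and Kiss1r that locus is chained from peaks without a base common to all. All genes of this paragraph were chosen after their values were seen and carry no test, and RNA levels were not measured. Lor, the loricrin of the epidermal cornified envelope, had 10, 16 and 16 units in replicates 1, 2 and 3. Nes, the intermediate filament protein of neural progenitors, had 4, 5 and 8 units, and Slc32a1, the vesicular transporter of GABA and glycine, had 3, 5 and 7, both lowest in replicate 1. Kiss1r, the kisspeptin receptor, had 6, 4 and 6 units. Igfbp1, a binding protein of insulin-like growth factors made in liver, had 6, 3 and 6. Emilin1, a glycoprotein of elastic fibres, had 10, 5 and 6 units, and Foxc2, a forkhead factor of lymphatic development, had 6, 3 and 4.

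By symbol alone, 12 of 102 short Tmem genes (11.8%) and 7 of 18 short Eif genes (38.9%) had a peak in some library, against 6.92% of all short genes. Of 820 predicted genes whose symbol begins with Gm, 5 (0.610%) had one.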
